A study of Mus musculus with 6 samples.

Results

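The transcripts of heat shock factor 1 (Hsf1) and of 9 cytosolic and mitochondrial chaperones (Hspa8, Hspa1a, Hspa1b, Dnajb1, Hsph1, Hsp90aa1, Hsp90ab1, Hspd1 and Hspe1) were followed in lung aILC2s, the activated group of type 2 innate lymphoid cells. The rule lists the genes by name and uses no value, though the list was drawn up with earlier results of these data known, and all 10 were found among the 16381 genes of the table. The study asked how melatonin, a circadian hormone that BALB/c mice cannot make themselves, acts on these cells. Wild-type BALB/c mice, young adult females according to the study's methods, received IL-33 intranasally, and live CD45+ lineage-negative ST2+ CD127+ cells were sorted from the digested lungs. The cells of both groups were then cultured for 24 h, with 250 µM melatonin in 3 samples and with DMSO as vehicle in 3 samples. Whether cells of several mice were pooled into a sample was not given in the sources used here, so p-values measure the spread between these samples, which may be partly technical.

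Chaperones bind unfolded proteins and help them to reach or keep their shape. HSF1 is the transcription factor of the heat shock response: at rest it is held inactive by chaperones, and when unfolded proteins occupy these it forms trimers, enters the nucleus and binds heat shock elements, which are inverted repeats of the unit GAA, in front of chaperone genes. HSP70 works in cycles with J-domain proteins, which bring it substrate, and with nucleotide exchange factors, which release it, and passes clients such as kinases and steroid receptors to HSP90, while the chaperonin HSP60 and its lid HSP10 fold proteins inside mitochondria.

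With melatonin, the inducible HSP70 genes and their J-domain partner rose, both cytosolic HSP90 genes and both mitochondrial chaperonin genes fell, and Hsf1 itself rose slightly. By limma on log2(normalized count + 1), with p-values adjusted over all 14419 genes tested and a threshold of 0.05, melatonin raised 4 of the 10 genes (Hspa1a, Hspa1b, Dnajb1 and Hsf1) and lowered 4 (Hspe1, Hsp90aa1, Hspd1 and Hsp90ab1), while Hspa8 and Hsph1 were not called. The same test called 24.5% of all genes higher and 24.7% lower. All melatonin samples lay above all vehicle samples for 5 of the 10 genes, where 30.0% of all genes did so, and below them for 4, where 30.3% did so. Calls were thus common throughout the table, and the size of each gene's change is given against that of all genes.

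The libraries held between 17056267 and 20511709 estimated counts. All 15 markers of ILC2s were listed, and summed to 228168 to 242935 normalized counts with vehicle and 154879 to 173856 with melatonin. Il5 (from 83072 to 49950) and Il2ra (from 51596 to 31066) made up most of that fall, while Il1rl1 and Rora were higher (log2 fold changes 0.63 and 0.64 by limma) and Gata3, Icos, Bcl11b and Ptprc were not called. The summed levels of other cell types were small beside these, and 4 of the 6 were lower with melatonin. They were 1284.5 to 1399.7 against 497.7 to 896 for T cells (4 of 8 markers listed), 289.4 to 322.3 against 130.7 to 161.8 for B cells (2 of 5), 1430.6 to 1615.4 against 367 to 844.4 for macrophages and dendritic cells (9 of 10), and 1068.1 to 1134.1 against 338 to 502.6 for endothelium and fibroblasts (2 of 10, nearly all of it Pecam1). Granulocyte and mast cell markers (7 of 11) summed to 1668.2 to 1793.3 against 2169.4 to 5938.9, nearly all of it Kit, while Csf3r was at 0 in every melatonin sample. Epithelial markers (8 of 10) summed to 964 to 2412.0 against 1060.9 to 1260.6, with opposite moves inside the sum. Epcam rose from 667.1 to 1097.5 and made up nearly all of it with melatonin, while the secretory and surfactant genes Scgb1a1 (from 387.3 to 0.3351), Sftpc (from 222 to 5.005) and Sftpa1 (from 67.64 to 1.093) fell, as did Krt8, from 39.26 to 0 in every melatonin sample. Their part in the results was not tested, and in bulk samples fewer cells of a type and less RNA per cell cannot be told apart.

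The melatonin samples did not share 1 sex of donors. Summed over 4 Y-linked genes (Ddx3y, Uty, Kdm5d and Eif2s3y), vehicle replicates 1 to 3 held 2991, 2993 and 2680 normalized counts and melatonin replicate 1 held 3038, while melatonin replicates 2 and 3 held 0. In those 2 libraries Xist, the RNA of the inactive X chromosome, reached 579 and 1091 normalized counts, against 13.57 or less in the other 4. The study's methods name female mice only, so 4 of the 6 libraries went against them. None of the 10 genes lies on a sex chromosome, and their values with melatonin replicate 1 alone and without it are given after the single genes. The libraries of each group carried consecutive names, in runs that lay apart, and only the vehicle names held an added mark after the number. A batch following the names and melatonin thus cannot be told apart.

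The regions around the start sites of these genes show where letters that HSF1 could bind occur and how alike some of the genes are. In the window from 250 bases before to 50 bases after the start site of the canonical transcript (GRCm39, GENCODE M39), GAANNTTC or TTCNNGAA, the 2 ways in which a pair of units can face each other and each the same on both strands, was found in 6 of the 10 genes and in 1491 of 12064 tested protein-coding genes (12.4%). A row of 3 units, TTCNNGAANNTTC on either strand, overlaps the pairs and was found in 54 promoters (0.448%), among them those of Hspd1 and Hspe1. A match describes letters only, and binding was not measured. The 4 stretches below are from the GRCm39 genome, on the minus strand, 5′ to 3′, with the matched letters in capitals. They are shown because the first pair belongs to the genes that rose most and differs at only 3 of 250 bases, while the other 2 lie before genes that did not rise.
Hspa1a, chr17:35191133-35191382: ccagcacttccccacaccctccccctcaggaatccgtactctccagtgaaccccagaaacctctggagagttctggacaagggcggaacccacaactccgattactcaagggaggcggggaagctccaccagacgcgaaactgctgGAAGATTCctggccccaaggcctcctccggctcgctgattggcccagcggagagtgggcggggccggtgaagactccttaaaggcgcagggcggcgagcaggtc
Hspa1b, chr17:35178215-35178464: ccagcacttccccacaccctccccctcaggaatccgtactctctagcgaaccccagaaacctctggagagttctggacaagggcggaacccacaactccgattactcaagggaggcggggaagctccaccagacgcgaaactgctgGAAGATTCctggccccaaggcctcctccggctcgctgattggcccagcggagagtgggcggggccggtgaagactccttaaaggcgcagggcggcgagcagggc
Hsph1, chr5:149559816-149559845: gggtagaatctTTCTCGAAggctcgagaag
Hspd1-Hspe1, chr1:55127212-55127241: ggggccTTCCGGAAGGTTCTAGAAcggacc

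In the 250 bases before their start sites, Hspa1a and Hspa1b were equal at 247 positions (98.8%), and both held GAAGATTC from base -104 to base -97. Hsph1 held TTCTCGAA from base -28 to -21 and TTCTGGAA from base 42 to 49. Hspd1 and Hspe1 are read away from each other from start sites 108 bases apart, and the same run of overlapping pairs lay at bases -52 to -35 of Hspd1 and, read from the other side, at bases -73 to -56 of Hspe1. Dnajb1 held GAAGGTTC from base 29 to 36. In Hsf1, Hspa8, Hsp90aa1 and Hsp90ab1 these letters were not in the window. Of the 6 genes with a match, 3 were higher with melatonin, 2 were lower and 1 was not called.

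**Figure D1:**
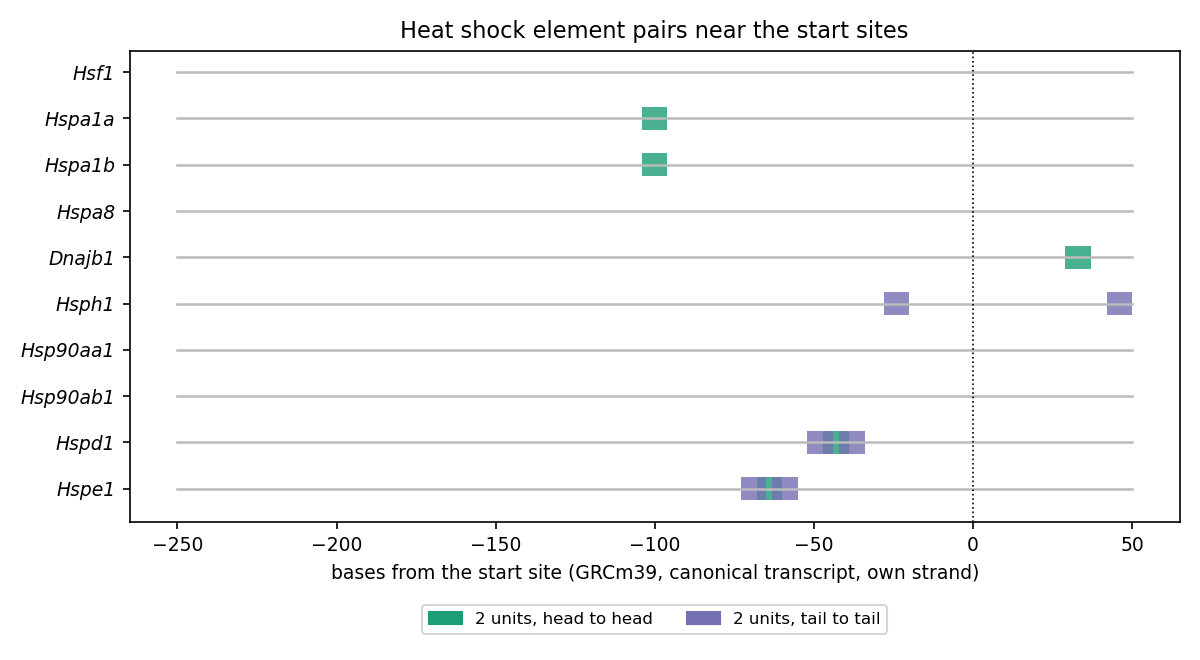
Positions of paired heat shock element units, GAANNTTC (head to head) and TTCNNGAA (tail to tail), from 250 bases before to 50 bases after the start site (dotted line) of each gene, on its own strand. Hspa1a and Hspa1b carry a pair at the same place, and the overlapping pairs of Hspd1 and Hspe1 are 1 stretch seen from both sides.

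Hsf1 (ENSMUSG00000022556, chr15:76361558-76388138, plus strand) rose less than Hspa1a, Hspa1b or Dnajb1. Vehicle replicates 1 to 3 held 1270.3, 1332.3 and 1364.0 normalized counts, and melatonin replicates 1 to 3 held 1977.8, 1519.7 and 1555.1. The groups did not overlap, and melatonin replicate 1 stood well above the other two. The mean went from 1322.2 ± 47.62 to 1684.2 ± 254.8 (SD, n = 3 each), a log2 fold change of 0.34 with SE 0.11 and a 95% interval of 0.09 to 0.59 (limma, adjusted p = 0.031). Of all genes tested, 29.1% had a log2 fold change at least as large. The rise was 0.22 without melatonin replicate 1 (adjusted p = 0.034 by limma), and the call was lost without vehicle replicate 1, 2 or 3 (adjusted p = 0.095, 0.082 and 0.067). A correction for transcript length also ended it (0.20, adjusted p = 0.14).

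Of the 50-base words of the canonical Hsf1 transcript, 47.3% also occur in transcripts of Dgat1 or Bop1, which are read from the opposite strand over the same locus, and the counting was not stated to use strand. Dgat1, an enzyme of triglyceride synthesis, was at 762.5 ± 44.91 and 812.5 ± 5.309 normalized counts and was not called. Bop1, a ribosome assembly factor, went from 3475.9 to 2178.4 and was lower (log2 fold change -0.67, limma adjusted p = 0.00019). Among the other members of the HSF family and its partners, Hsbp1, whose product binds HSF1 trimers, was higher at 2167.6 ± 112.5 and 2519.0 ± 35.74 normalized counts (log2 fold change 0.22, adjusted p = 0.037), a call that changed in 9 of the alternatives. Hsf2 stood near 60.52 and 67.08 normalized counts and was not called, and Hsf4 and Hsf2bp were under the minimum of 10 in every sample.

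Hspa1a and Hspa1b, the stress-inducible HSP70 genes, are near-identical copies without introns whose start sites lie 12918 bases apart. They are almost silent in unstressed cells. Hspa1a (ENSMUSG00000091971, chr17:35188166-35191132, minus strand) was counted at 21.21, 8.209 and 14.15 with vehicle and at 150.2, 127.1 and 107.2 with melatonin. Every melatonin value was several times the highest vehicle value. The mean went from 14.52 ± 6.508 to 128.2 ± 21.56 (SD, n = 3 each). On the log2(value + 1) scale the change was 3.13 with SE 0.34 (limma, adjusted p = 0.00022), or 8.78-fold, and 35 of all genes (0.243%) had a change at least as large.

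Hspa1b (ENSMUSG00000090877, chr17:35175412-35178214, minus strand) was at 55.33, 62.56 and 93.84 normalized counts with vehicle and at 281.2, 361.1 and 290.8 with melatonin. Here too every melatonin sample stood far above every vehicle sample. The mean went from 70.58 ± 20.47 to 311 ± 43.64 (SD, n = 3 each). The log2 fold change was 2.15 with SE 0.22 (limma, adjusted p = 0.00015), or 4.44-fold, a size that 166 genes (1.15%) reached.

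How the reads fall between these copies is uncertain, since 58.8% of the 50-base words of Hspa1a also occur in Hspa1b and the authors' algorithm divides such reads. Their sum does not depend on that division. With vehicle it came to 76.54, 70.77 and 108 normalized counts, and with melatonin to 431.4, 488.2 and 398. The sum rose from 85.1 ± 20.03 to 439.2 ± 45.62 (SD, n = 3 each), a log2 difference of 2.39 or 5.23-fold (exact two-sided permutation test, p = 0.1, the smallest that 3 against 3 samples can give). Hspa1b made up 82.53% ± 8.9 of the sum with vehicle and 70.74% ± 4.839 with melatonin, and the groups overlapped (exact two-sided permutation test, p = 0.3, n = 3 each, where no p under 0.1 is possible).

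Hspa8 (ENSMUSG00000015656, chr9:40711630-40731039, plus strand) encodes HSC70, the constitutive HSP70 of the cytosol. Its normalized counts were 20079, 20852 and 19430 with vehicle and 20946, 26419 and 25052 with melatonin. All melatonin samples lay above all vehicle samples, but replicate 1 only just. The means were 20121 ± 711.8 and 24139 ± 2848.2 (SD, n = 3 each), and the log2 fold change of 0.26 with SE 0.10 and a 95% interval of 0.03 to 0.48 was not called (limma, adjusted p = 0.06), and 34.2% of all genes had one at least as large. Without melatonin replicate 1 it was 0.36 and passed the test (adjusted p = 0.0017 by limma).

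Of the counts listed for Hspa8 and its sequence copies, most stood under the copies. Of its 50-base words, 70% also occur in Gm15459, a processed pseudogene (chr5:5831615-5833555), which was listed at 61637 ± 1526.8 normalized counts with vehicle and 78925 ± 10956 with melatonin, well above Hspa8 itself. Gm8355, another such copy, stood at 6511.4 and 7794.6. Hspa8 held only 21.3% to 22.9% of the sum with its 6 listed copies. That sum went from 88871 ± 2133.2 to 111613 ± 14744 (SD, n = 3 each) and was higher with melatonin (log2 fold change 0.32, SE 0.12, limma adjusted p = 0.045). The level of Hspa8 on its own is a small share of that sum, and its call depended on whether the copies were added. How many reads listed for the copies came from Hspa8 was not measured. Measured against Hspa8 alone, the inducible pair made up 0.3812%, 0.3394% and 0.5558% with vehicle and 2.06%, 1.848% and 1.589% with melatonin. The means of 0.4254% ± 0.1148 and 1.832% ± 0.2359 (SD, n = 3 each) did not overlap and differed 4.38-fold (exact two-sided permutation test, p = 0.1).

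**Figure D2:**
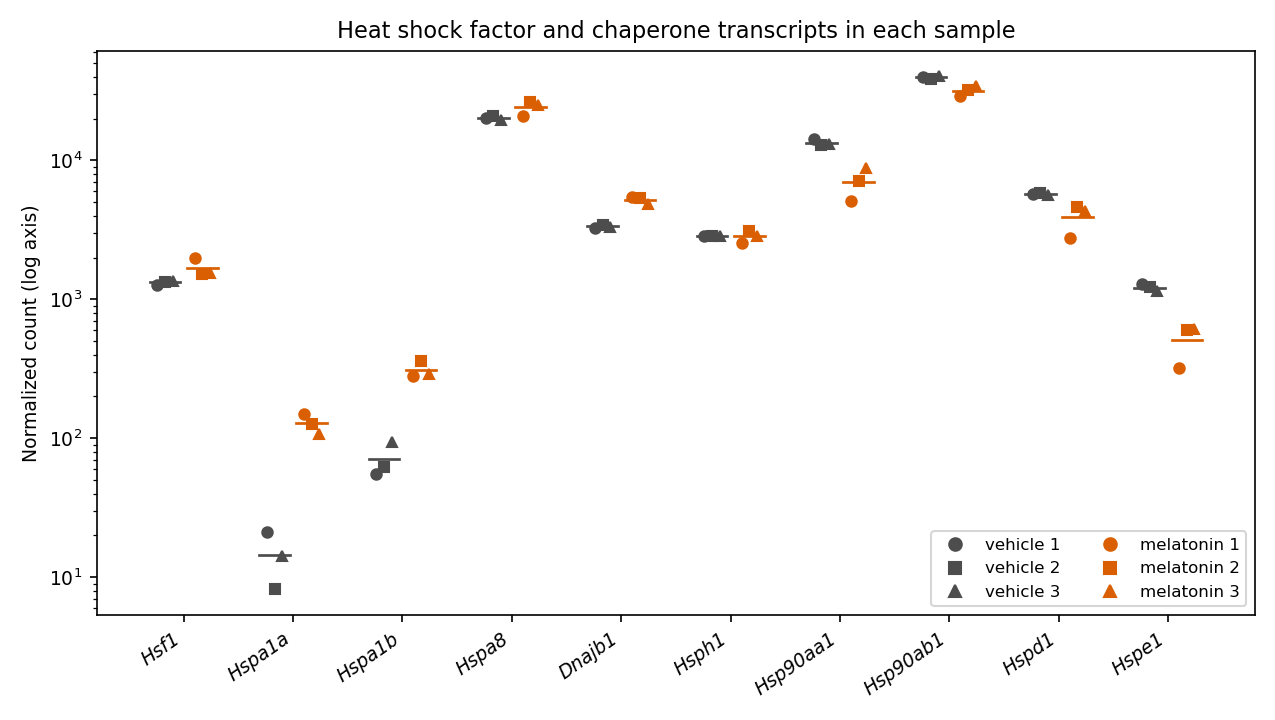
Normalized counts (log axis) of each gene in the 3 vehicle and the 3 melatonin samples. Points are samples, marker shapes are replicates 1 to 3 and lines are group means, and Hspa1a and Hspa1b lie lowest and farthest apart between the groups (14.52 against 128.2 and 70.58 against 311).

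Dnajb1 (ENSMUSG00000005483, chr8:84334811-84339820, plus strand) encodes HSP40, the J-domain protein that delivers substrate to HSP70 and takes part in switching HSF1 off. It was at 3258.4, 3430.3 and 3343.7 normalized counts with vehicle and at 5422.2, 5318.7 and 4859.5 with melatonin. The groups were well apart and both were tight. The mean went from 3344.1 ± 85.92 to 5200.1 ± 299.5 (SD, n = 3 each), a log2 fold change of 0.64 with SE 0.07 (limma, adjusted p = 0.00029), a size that 15.6% of genes reached. The call held in all 20 alternatives with values of 0.52 to 0.72. Only 0.373% of its words occur in other genes.

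Hsph1 (ENSMUSG00000029657, chr5:149537636-149560156, minus strand) encodes HSP110, a nucleotide exchange factor of HSP70 that is itself inducible by heat. Its normalized counts of 2867.4, 2867.1 and 2872.7 with vehicle fell between those with melatonin, 2527.8, 3109.4 and 2878.1. The groups overlapped, with means of 2869.1 ± 3.166 and 2838.4 ± 292.8 (SD, n = 3 each). The log2 fold change was -0.02 with a 95% interval of -0.22 to 0.18 (limma, adjusted p = 0.86), an interval that leaves out changes of the size seen in Dnajb1. Of all genes, 49% had a change at least as low. No 50-base word of its transcript occurs in another gene.

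Hsp90aa1 and Hsp90ab1 encode the cytosolic HSP90 proteins, the first inducible and the second constitutive. Hsp90aa1 (ENSMUSG00000021270, chr12:110656842-110669166, minus strand) was at 14223, 12985 and 13027 normalized counts with vehicle and at 5100.6, 7103.8 and 8795.6 with melatonin. The melatonin samples all lay far below the vehicle samples but were themselves widely spread. The mean fell from 13412 ± 703.1 to 7000.0 ± 1849.7 (SD, n = 3 each), a log2 fold change of -0.97 with SE 0.17 (limma, adjusted p = 0.0018), or 1.96-fold lower, and 12.4% of genes had a log2 fold change at least as low. Of its 3 listed pseudogene copies, Gm12346 and Gm5844 fell too, Gm12346 from 5314.7 ± 174.9 to 2918.4 ± 794.5, and the sum of all 4 had a log2 fold change of -0.95 (limma, adjusted p = 0.0022).

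Hsp90ab1 (ENSMUSG00000023944, chr17:45878552-45891949, minus strand) had the highest count of the 10 genes as listed, though Hspa8 summed with its copies stood above it. It was at 40028, 38849 and 40239 normalized counts with vehicle and at 28996, 32002 and 34369 with melatonin. The groups did not overlap. The mean went from 39705 ± 749.4 to 31789 ± 2692.7 (SD, n = 3 each) with a log2 fold change of -0.32 and SE 0.09 (limma, adjusted p = 0.015), a size that 32.1% of genes reached downwards. The call was lost without vehicle replicate 1, 2 or 3 (limma adjusted p = 0.069, 0.053 and 0.069). Slc35b2, a sulfate donor transporter read from the opposite strand at this locus, went the other way, from 1866.4 to 3611.5 normalized counts (log2 fold change 0.94, limma adjusted p = 0.0003), and 6.48% of the words of Hsp90ab1 occur in it.

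The 2 HSP90 transcripts shifted in proportion. Hsp90aa1 divided by Hsp90ab1 was 0.3553, 0.3342 and 0.3237 with vehicle and 0.1759, 0.222 and 0.2559 with melatonin. Every melatonin ratio was lower than every vehicle ratio. The means were 0.3378 ± 0.01609 and 0.2179 ± 0.04016 (SD, n = 3 each), a log2 difference of -0.65 (exact two-sided permutation test, p = 0.1, the smallest possible). Together both genes went from 53117 ± 1215.9 to 38789 ± 4542.2 normalized counts.

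Hspd1 and Hspe1, the neighbours that share the printed stretch, encode the mitochondrial chaperonin HSP60 and its co-chaperonin HSP10. Hspd1 (ENSMUSG00000025980, chr1:55116989-55171038, minus strand) was at 5750.4, 5838.8 and 5635.4 normalized counts with vehicle and at 2753.0, 4651.6 and 4305.7 with melatonin. All melatonin samples were lower, and replicate 1 lay far under the other two. The mean fell from 5741.5 ± 102 to 3903.5 ± 1011.2 (SD, n = 3 each), with a log2 fold change of -0.59 and SE 0.17 (limma, adjusted p = 0.019), a size that 21.6% of genes reached downwards. Without melatonin replicate 1 the change was -0.36 (limma adjusted p = 0.002), and without vehicle replicate 2 or 3 the call was lost (adjusted p = 0.063 and 0.057). Its pseudogene Hspd1-ps3, which holds 42.8% of its words, went from 2569.8 to 1856.5 (log2 fold change -0.50), and the sum of both had a log2 fold change of -0.56 (limma, adjusted p = 0.023).

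Hspe1 (ENSMUSG00000073676, chr1:55127260-55130476, plus strand) fell the most of the 10 genes. It was at 1283.3, 1222.1 and 1141.3 normalized counts with vehicle and at 321.2, 598 and 613 with melatonin. The groups were far apart. The mean fell from 1215.6 ± 71.25 to 510.8 ± 164.3 (SD, n = 3 each), a log2 fold change of -1.31 with SE 0.22 (limma, adjusted p = 0.0016), or 2.47-fold lower, and 7.67% of genes had a change at least as low.

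The proportion of lid to ring transcripts was lower with melatonin. Hspe1 divided by Hspd1 was 0.2232, 0.2093 and 0.2025 with vehicle and 0.1167, 0.1286 and 0.1424 with melatonin. These ranges did not overlap. The means were 0.2117 ± 0.01053 and 0.1292 ± 0.01286 (SD, n = 3 each), a log2 difference of -0.72 (exact two-sided permutation test, p = 0.1, the smallest possible). The gap between the genes was smaller after a correction for transcript length, with log2 fold changes of -0.98 for Hspe1 and -0.62 for Hspd1.

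**Figure D3:**
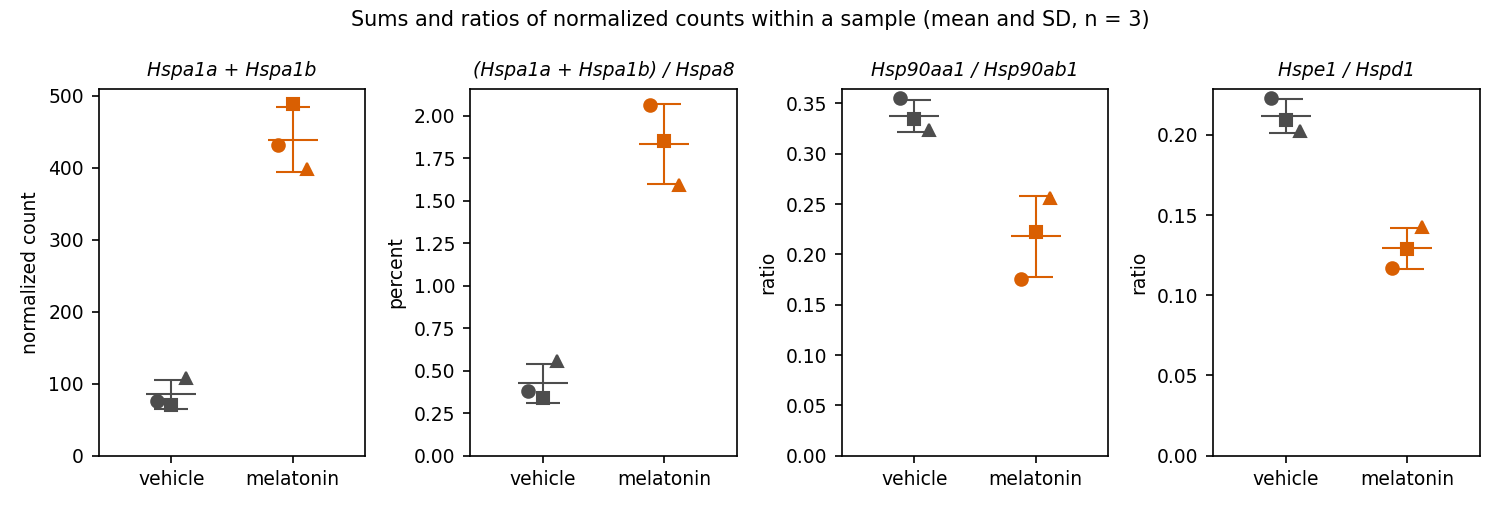
The sum of Hspa1a and Hspa1b in normalized counts, that sum as a percent of Hspa8, and the ratios Hsp90aa1 to Hsp90ab1 and Hspe1 to Hspd1, all on linear axes from 0. Points are samples (circle, square and triangle for replicates 1, 2 and 3), bars are mean and SD (n = 3), and in each panel the groups do not overlap.

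Melatonin replicate 1, the melatonin sample with Y-linked counts, was the lowest melatonin sample for 7 of the 10 genes and the highest for 3. On the log2(value + 1) scale it lay from the mean of the other two by -0.91 for Hspe1, -0.70 for Hspd1, -0.63 for Hsp90aa1 and 0.36 for Hsf1 and for Hspa1a. Fitted by limma with this sample alone against the 3 vehicle samples, the log2 fold change was 3.38 for Hspa1a, 2.02 for Hspa1b, 0.70 for Dnajb1, 0.58 for Hsf1, -0.45 for Hsp90ab1, -1.06 for Hspd1, -1.39 for Hsp90aa1 and -1.91 for Hspe1. That fit takes its spread from the vehicle samples alone, which varied less than the melatonin samples (median CV over genes 5.96% against 10.6%), so only its values are given and no call is read from it. Fitted without it, the same genes stood at 3.01, 2.22, 0.60, 0.22, -0.26, -0.36, -0.76 and -1.0. All 8 directions were the same in both, the 8 genes were called without replicate 1, and the falls were larger for replicate 1 alone. Hspa8 and Hsph1 were the exceptions, with 0.06 and -0.18 for replicate 1 alone and 0.36 (called) and 0.06 (not called) without it.

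**Figure D4:**
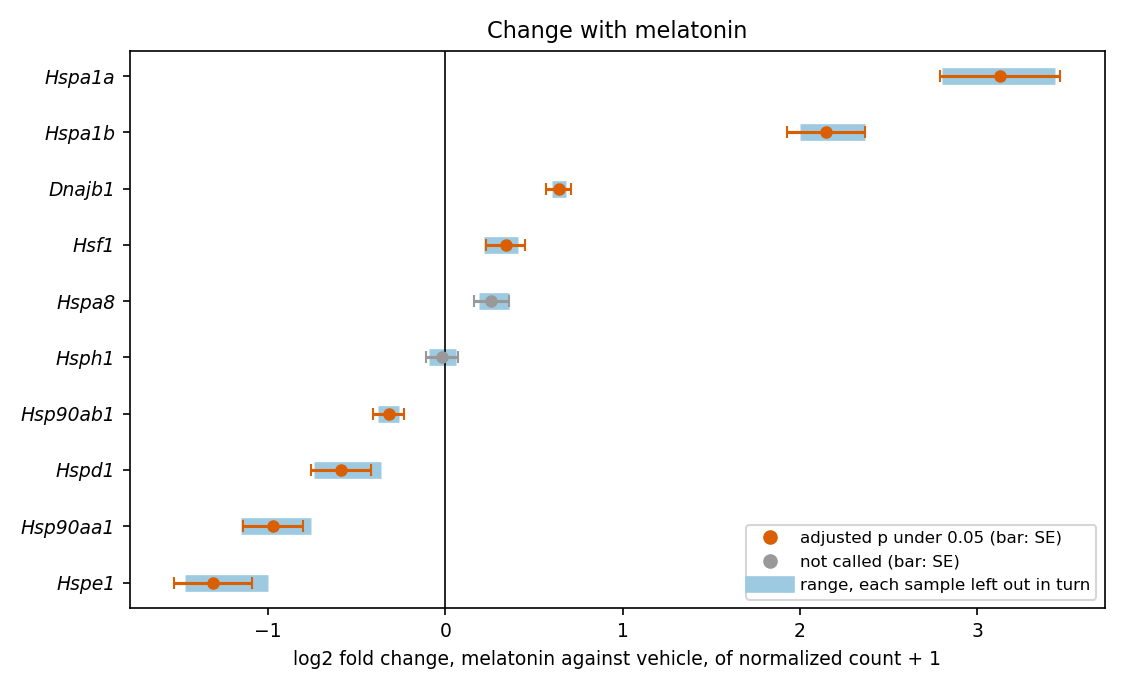
Log2 fold change of each gene, melatonin against vehicle, on the normalized count + 1 scale, with its SE (bars) and the range when each of the 6 samples is left out in turn (blue). The changes run from 3.13 for Hspa1a to -1.31 for Hspe1, and Hsph1 lies at -0.02.

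Per kilobase of canonical transcript, the vehicle samples ranked the 10 genes without overlap between neighbours. By the reads listed for each gene itself, Hsp90ab1 led with 14689 normalized counts per kilobase, followed by Hspa8 (8404.6), Hsp90aa1 (3799.3), Hspd1 (2369.6), Hspe1 (1570.5), Dnajb1 (946.3), Hsph1 (464.4), Hsf1 (257.4), Hspa1b (25.18) and Hspa1a (4.894). With melatonin, Dnajb1 (1471.5) stood above Hspe1 (659.9), and the order of the others was as before. The ranges of Hsp90ab1 and Hspa8, of Hsp90aa1 and Hspd1, of Hspd1 and Dnajb1, and of Hspe1 and Hsph1 overlapped there. So even after the rise the inducible pair, at 111 and 43.2 per kilobase, remained the lowest of the set. Levels of Hspa8, Hsp90aa1 and Hspd1 leave out the reads assigned to their copies.

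The other chaperone genes were read from lists of known members. Outside the endoplasmic reticulum, limma called 17 of 103 tested genes beyond the 10 higher and 38 lower and left 48 uncalled, with a median log2 fold change of -0.16, against 24.5% higher, 24.7% lower and a median of -0.005 for all genes. Without vehicle replicate 1, 10 were higher and 29 lower. The calls over all 14419 genes dropped too in that fit, from 3529 higher and 3565 lower to 2739 and 2725. Fits without vehicle replicate 2 or 3 also called fewer of all genes. The lists overlap each other.

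Of 25 tested stress-inducible targets of HSF1, 7 were higher, 5 lower and 13 not called, with a median log2 fold change of -0.01, close to the 24.5% and 24.7% and the median of -0.005 of all genes, and of the 16 that are not among the 10 genes, 4 were higher and 1 was lower. Among the higher ones were Ier5, an immediate early gene that modulates HSF1, from 605.1 ± 30.24 to 1008.8 ± 32.89 normalized counts (log2 fold change 0.74, limma adjusted p = 0.0003), Hspa4l, an HSP110 relative (0.63, adjusted p = 0.00078), and the J-domain gene Dnaja1, from 4321.7 ± 248.3 to 6649.7 ± 542.9 (0.62, adjusted p = 0.00061). Fkbp4, an HSP90 co-chaperone, was the one that fell (-0.48, adjusted p = 0.0085). These 4 genes kept their call in every alternative. The count of lower genes over the whole list was 3 without vehicle replicate 2 or 3.

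The counts in the HSP70 machinery are read beside 24.5% higher and 24.7% lower over all genes. They lay on both sides of these shares, and the differences were not tested. Of 21 cytosolic J-domain genes, 6 were higher and 3 lower, and 1 was lower without vehicle replicate 1. Examples were Dnajc14 at 0.71, Dnajb1 at 0.64, Dnajb14 at 0.63 (log2, called in all but 3 alternatives), Dnajc2 at -0.57 and Dnaja2 at -0.39. Of 11 HSP70 and HSP110 genes, 4 were higher and 3 lower, of which 1 was lower without vehicle replicate 1, 2 or 3. Hspa4, another HSP110 relative, had a log2 fold change of -0.28 and lost its call in 4 alternatives. Among 13 nucleotide exchange factors and HSP70 partners, 4 were higher and 5 lower, and 2 were higher without vehicle replicate 1 or melatonin replicate 2. Stub1, the ubiquitin ligase CHIP that marks HSP70 clients for degradation, rose from 3542.1 ± 156.4 to 6424.8 ± 349.6 normalized counts (log2 fold change 0.86, limma adjusted p = 8.7e-05). Hspbp1, which antagonises CHIP and releases nucleotide from HSP70, fell from 1936.0 ± 47.99 to 863.2 ± 111.1 (-1.17, adjusted p = 9e-05). Bag2, which also inhibits CHIP, fell from 813.5 ± 61.4 to 398.3 ± 87.47 (-1.05, adjusted p = 0.001), and St13, the HSP70-interacting protein HIP, fell with a log2 fold change of -0.57. Other genes of the BAG family went the other way, Bag4 (0.37) and Bag5 (0.27), with calls that changed in 4 and 11 alternatives.

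More HSP90 co-chaperones were called lower than higher. Of 22 tested, 9 were lower, 2 higher and 11 not called, with a median log2 fold change of -0.21. Over all genes, 24.7% were lower and 24.5% higher, with a median of -0.005, and the difference from these was not tested. Fkbp8, a membrane-anchored FK506-binding protein, fell from 11550 ± 361 to 6389.4 ± 290.1 normalized counts (-0.85, limma adjusted p = 7.3e-05). Nudc (-0.60, adjusted p = 0.00097) and Sugt1 (-0.53, adjusted p = 0.0028), which link HSP90 to its clients, fell as well. The 2 that rose were Cdc37l1 (0.46) and Ttc4 (0.24), the latter with a call that changed in 10 alternatives. Among the falls, the calls of Ppid (-0.34) and Tomm34 (-0.28) changed in 9 and 8 alternatives.

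In mitochondria, 10 of 20 chaperone and protease genes were lower, Hspd1 and Hspe1 among them, 3 were higher and 7 were not called, with a median log2 fold change of -0.29. Beside this, 24.7% of all genes were lower and 24.5% higher, and the difference from these shares was not tested. The mitochondrial HSP70 gene Hspa9 fell from 9774.6 ± 448.9 to 6033.4 ± 1160.7 normalized counts (-0.71, limma adjusted p = 0.0026). The matrix proteases Clpp (-0.73, adjusted p = 0.00033) and Lonp1 (-0.71, adjusted p = 0.00027) fell by like amounts. Spg7, an inner membrane protease subunit, rose (0.47, adjusted p = 0.0028), as did the nucleotide exchange factor Grpel2 (0.38) and the unfoldase Clpx (0.35). Without vehicle replicate 2, 6 genes of this list were lower, where 2711 of all 14419 genes were, against 3565 with all samples.

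The cytosolic chaperonin TRiC, which folds actin and tubulin, was lower in 7 of its 9 tested genes and higher in none, a count that was 7 or 8 in every alternative. The called genes were Cct2 (log2 fold change -0.76), Cct6a (-0.68), Cct8 (-0.64), Cct3 (-0.63), Cct5 (-0.62), Tcp1 (-0.51) and Cct7 (-0.41), with limma adjusted p between 0.00039 for Cct2 and 0.0064 for Cct7. Cct2 stood at 5064.0 ± 262.8 normalized counts with vehicle and 2992.4 ± 345.5 with melatonin. The counts of TRiC, prefoldin and the small heat shock proteins stand beside 24.7% lower and 24.5% higher over all genes, and were not tested against them. Cct4 (-0.18) and the scarce Cct6b (0.08) were not called. Of the 6 genes of prefoldin, which hands substrate to TRiC, 3 were lower (Pfdn4 at -0.66, Pfdn5 at -0.35 and Pfdn1 at -0.34), and only 1 was without vehicle replicate 1, 2 or 3 or without melatonin replicate 2. Of 4 tested small heat shock protein genes, 2 were lower at low levels, Hspb6 from 126.9 to 63.23 normalized counts and Cryaa from 23.05 to 3.166.

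Of 18 chaperone genes of the endoplasmic reticulum, which answer mainly to other factors than HSF1, 8 were higher, 4 lower and 6 not called. Over all genes, 24.5% were higher and 24.7% lower, so the lower count lay near its share, and neither count was tested. Hspa5, the HSP70 of this compartment (BiP), rose from 26584 ± 1258.8 to 46400 ± 6037.2 normalized counts (log2 fold change 0.80, limma adjusted p = 0.00049). Dnajc10 (0.73, adjusted p = 0.00017) and Sil1 (0.65, adjusted p = 0.00033), a J-domain disulfide reductase and a nucleotide exchange factor of BiP, rose with it. Hyou1, the HSP110 of the compartment (-0.57), the lectin chaperone Canx (-0.44) and Creld2 (-0.43) fell.

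**Figure D5:**
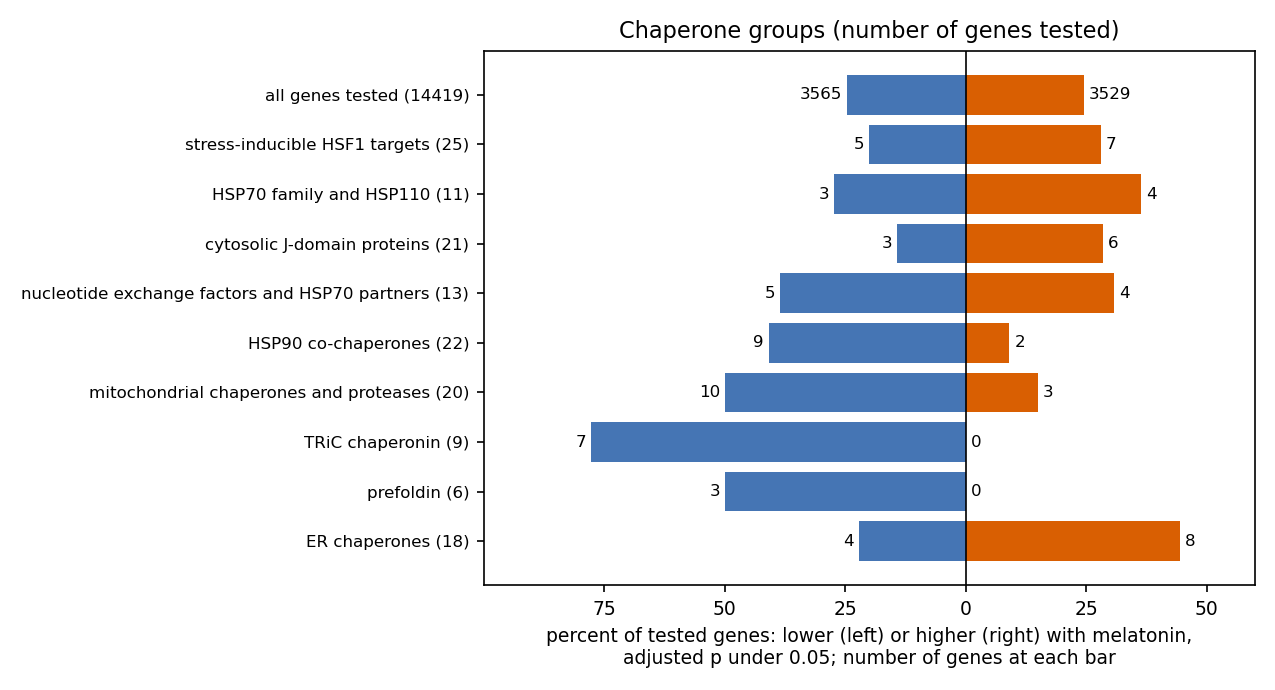
Percent of the tested genes of each chaperone list that were higher (right, orange) or lower (left, blue) with melatonin at an adjusted p under 0.05 (limma), with the number of genes at each bar and the number tested in brackets. All tested genes stand at the top with 24.5% higher and 24.7% lower, and TRiC has 7 of 9 genes lower and none higher.

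Over the 6 samples, many of the genes varied closely together or in opposite ways, and others less closely. As a description on log2 values, Pearson's r was 0.995 between Hsp90aa1 and Hsp90ab1, 0.967 between Hspd1 and Hspe1 and 0.967 between Hspa1b and Dnajb1, while Hsf1 and Hspd1 stood at -0.989. Hsph1 stood between, with r from -0.641 to Hsf1 and -0.026 to Hspa1b up to 0.406 to Hsp90aa1 and 0.692 to Hspd1. Hspa8 stood at 0.773 to Hspa1b and 0.726 to Dnajb1 but at 0.266 to Hsf1 and -0.219 to Hspd1. Hspa1a was not included, since its mean is under 100 normalized counts. These points share their libraries and the difference between the groups, which alone gives high values. Compared with 9989 other genes whose mean reached 100 normalized counts, the patterns most like Hsf1 were those of Klhl6 (r = 0.9982), Senp7 (0.9975) and the pseudogene Ywhaq-ps3 (0.9962). Nearest to Hsp90aa1 were 3 ribosomal protein genes, Rpl36al (0.9993), Rpl39 (0.9993) and Rpl14 (0.9992). Nearest to Hspd1 were Lyar, a nucleolar protein gene (0.9997), Mdh2, the mitochondrial malate dehydrogenase gene (0.9972), and Cth, an enzyme gene of cysteine synthesis (0.9968).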

How the data were processed

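Total RNA of the 6 samples was sequenced on an Illumina NextSeq 500. Per the study's methods, reads were trimmed and, after alignment to mm39 by STAR within Partek Flow, assigned by the authors to Gencode genes. Partek's E/M method, used for this, splits a shared read among the genes it matches. The authors removed genes under 10 counts and normalized with DESeq2's median ratio. In the table this filter is a sum over the samples, since genes under 10 in each single sample are still listed. The deposited unit is thus a signal (an estimated count over its library's size factor), here named the normalized count. Only 64.7% of values were whole reads at a tolerance of 0.01, so no count model was the main test. Estimated totals per library were 17056267 to 20511709, from the value of 1 read.

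The groups were compared with limma 3.58.1 (R 4.3.3) on log2(value + 1), with a mean-dependent prior, for 14419 genes that reached 10 in any sample, adjusted by Benjamini-Hochberg over all of them. Sums and ratios were compared by exact two-sided permutation tests. The script was tested on simulated data. GENCODE M39 gave names for 16334 of 16381 identifiers (47 had none), coordinates and lengths, and GRCm39, the same assembly as mm39, the sequences. The 10 genes and all lists were chosen with earlier results of these data known. From each list, up to 3 called rises and 3 called falls of genes whose mean reached 100 were named, lists of up to 9 genes more fully, and Hspb6 and Cryaa, which fall under that mean, were named after their values were seen. So were Bag5, Ppid and Tomm34, which lie outside this rule. Some items are not reported here. Alternatives varied pseudocount, filter, scaling, prior, weights, length correction, block and samples. A sum with sequence copies (genes holding at least 5% of a transcript's 50-base words) and a fit on libraries with Y-linked counts were chosen after seeing the data.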

Additional observations from a re-analysis of the deposited data

How the results depend on the processing

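Each gene was refitted under 20 alternatives (19 for Hspa1a, which falls under a mean of 100). Hspa1a, Hspa1b, Dnajb1, Hsp90aa1 and Hspe1 kept their call and direction in all of them, with log2 fold changes of 2.21 to 3.44, 2.00 to 2.37, 0.52 to 0.72, -1.39 to -0.76 and -1.91 to -0.98. The other 5 changed in at least 1. The fit with melatonin replicate 1 alone, which is among these, takes its spread from the vehicle samples only, so its calls bear little on stability. Of the 10 genes, 2 were lower under quantile normalization, where Hsp90ab1 (-0.19, limma adjusted p = 0.063) and Hspd1 (-0.49, adjusted p = 0.054) were not called, and the cause was not tested. Leaving out each sample in turn gave 2 to 4 lower genes and, among the other chaperone genes, 10 to 16 higher ones, with fewer samples in each fit. Hsf1 was also not called without the mean-dependent prior (adjusted p = 0.079) and with upper quartile scaling (0.055). Hspd1 was not called without that prior (0.069). Hspa8 was called higher with quantile normalization, sample weights, scaling to the same total, voom and the sum with its copies (adjusted p of 0.004, 0.0056, 0.035, 0.029 and 0.045). Hsph1, never called, changed sign with sample weights (0.05), scaling to the same total (0.02), voom (0.02) and without melatonin replicate 1 (0.06), and ran from -0.09 to 0.06 as each sample was left out. The median log2 fold change of all genes lay between -0.054 (upper quartile scaling) and 0.037 (quantile normalization) over the scalings.

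Samples with the same replicate number did not deviate together (correlations of -0.11, 0.14 and -0.19), so the numbers gave no pairing. With a replicate block, 3 of the 10 genes were higher and 4 lower, Hsf1 being no longer called (adjusted p = 0.055).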
